A study of Mus musculus with 6 samples.

Results

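The genes described here are the nuclear-encoded subunits of the mitochondrial respiratory chain and ATP synthase, taken by symbol prefix: Ndufa, Ndufb, Ndufc, Ndufs and Ndufv for complex I, Sdh for complex II, Uqcr for complex III, Cox4 to Cox8 for complex IV and Atp5 for complex V. Of 119 mouse symbols with such a prefix, 19 pseudogenes and 8 Ndufaf assembly factors were left out. The remaining 92 protein-coding genes were all listed, among 36528 gene identifiers. They hold 88 genes of the complexes themselves and 4 Sdhaf genes, which carry the Sdh prefix but encode assembly factors of complex II.

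Polyadenylated RNA was sequenced from CD49f+/CD34+/GFP- cells, which the labels call hair follicle stem cells. They were sorted by flow cytometry from mice given diphtheria toxin (DT, 3 libraries) or saline (NaCl, 3 libraries). All mice of both groups were Lgr5-DTReGFP, a reporter that puts the toxin receptor and GFP in Lgr5-expressing cells, so the sorted GFP-negative cells are those outside the reporter-positive population. The labels give no dose, age, hair cycle stage or time between toxin and sorting, no receptor-free DT group, and no statement that libraries came from separate animals. The p-values therefore reflect only how these libraries vary, which may be technical variation.

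Each library held between 15300755 and 25558859 reads in genes, and no pair of libraries within a group agreed within sampling noise (their chi-square over genes was 19.9 to 59.98 for each degree of freedom). The sort marker Cd34 was at 1883 to 2606 CPM (reads of a gene scaled to a common library size) in DT libraries and 2406 to 3088 CPM in saline libraries. Of 9 hair follicle stem cell markers, 1 rose, Krt14, at 8363 to 9374 CPM in DT libraries against 2283 to 2933 CPM in saline libraries. Of the others, 4 fell: Lgr5, Lhx2 (log2 fold change -1.09), Sox9 (-0.71) and Nfatc1 (-0.69). Lgr5 was at 6.98 to 7.27 CPM in DT libraries against 17.3 to 31.6 CPM in saline libraries. Cells with its reporter were left out by the sort, so Lgr5 does not mark the sorted cells. Sox9 lost its call without DT library 2 or 3 or saline library 1 or 2, and Nfatc1 without DT library 2 or 3. Cd34, Itga6, Krt15 and Krt5 did not pass. All 11 cell cycle markers examined were higher in DT, with a summed level of 779 to 1495 CPM in DT libraries against 134 to 167 CPM in saline libraries. Of 5 suprabasal markers, Krt1 (no call without DT library 2) and Krt10 were lower in DT, and the others did not pass. Of 8 immune markers, 6 were tested, and Cd3g, Cd74 and Cd3e were lower. Cd3e had no call without DT library 2 or 3 or saline library 1 or 3. Ptprc, Cd207 and Cd68 did not pass. Itgax, too low to be tested, had 12, 19 and 7 reads in DT libraries and 0, 2 and 5 in saline libraries. The fibroblast marker Col1a2 (-1.22) and the melanocyte marker Dct (-2.86) were lower, each 1 of 2 tested in its list. None of 3 endothelial markers tested passed. Markers of skeletal muscle summed to 11.5 to 15.1 CPM in DT libraries against 7.31 to 10.9 CPM in saline libraries, with Myh4 and Pvalb at 0 in every library and Atp2a1 the only 1 of 3 tested that rose. Myh1, Acta1, Mb and Tnnt3 were too low to be tested. Myh1 had 15, 5 and 19 reads in DT libraries and 0, 0 and 2 in saline libraries. For Acta1 these were 2, 2 and 10 against 1, 0 and 2, and for Mb 16, 3 and 2 against 0, 3 and 0. Tnnt3 had 0 reads in each DT library and 0, 2 and 1 in saline libraries. The 5 smooth muscle and pericyte markers summed to 25.4 to 103 CPM in DT libraries against 3.05 to 3.48 CPM in saline libraries. Nearly all of the sum in DT libraries was Acta2, which was at 23.1, 88.2 and 101.9 CPM there against 0.870, 0.601 and 1.13 CPM in saline libraries and rose. Rgs5 was at 0 in every library, Myh11 and Des were too low to be tested, and Notch3 did not pass (-0.34, adjusted p = 0.565). The 6 adipocyte markers summed to 4.03 to 6.31 CPM in DT libraries against 0.564 to 4.85 CPM in saline libraries. Adipoq and Plin1 were at 0 in every library, Ucp1 had 6, 15 and 15 reads in DT libraries and 0 reads in each saline library, and neither of the 2 markers tested passed. The part of cell makeup and of cell cycling in the results below was not tested, and in bulk RNA a change in the number of cells of a type and a change in RNA per cell cannot be told apart.

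The respiratory chain passes electrons from NADH (complex I) and succinate (complex II) through complex III and cytochrome c to oxygen at complex IV. Protons pumped on the way drive ATP synthase, complex V. Most subunits are encoded in the nucleus and imported, while a small set of core subunits of complexes I, III, IV and V is encoded by mitochondrial DNA, so the complexes need products of both genomes. Hair follicle stem cells are known for their use of glycolysis.

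Of the 92 genes, 85 had enough reads to be tested, and 39 of these were higher in DT at an adjusted p under 0.05 (edgeR quasi-likelihood test, Benjamini-Hochberg over all 15132 genes tested). Among all genes tested 17.2% were higher by the same rule. Only 1 member, Ndufa4l2, was lower, against 11.9% of all genes. The other 45 did not pass in either direction. The median log2 fold change (DT over saline) of the 85 was 0.51, against -0.01 for all genes, and 77 of them had a positive value. All DT libraries lay above all saline libraries for 49 members and below them for 1, beside 25.4% and 20.5% of all genes. The members took 1.39%, 1.61% and 1.46% of all reads in DT libraries, against 1.24%, 1.10% and 1.08% in saline libraries.

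By complex, the count of tested genes that rose was 6 of 8 for complex III, 11 of 17 for complex V, 2 of 4 for complex II, 15 of 39 for complex I and 5 of 13 for complex IV. None of the 4 Sdhaf assembly factors passed. Median log2 fold changes were 0.70 for complex III, 0.62 for complex V, 0.50 for complex IV, 0.46 for complex II and 0.42 for complex I. The genes of a complex are not replicates, and differences between complexes were not tested. Complexes follow the symbol, so Ndufa4, whose protein is now assigned to complex IV, and its paralog Ndufa4l2 count in complex I. Cyc1, a complex III gene without the Uqcr prefix, is not counted. In log2 units above the mean of the saline libraries, the median complex III gene was at 0.63, 0.76 and 0.61 in the DT libraries and at 0.15, -0.05 and -0.07 in the saline libraries. The median complex V gene was at 0.53, 0.94 and 0.53 in the DT libraries and at 0.20, -0.05 and -0.10 in the saline libraries. Complex I was the lowest in DT library 1, at 0.27, complex II in DT library 2, at 0.55, and complex IV in DT library 3, at 0.30, so the order among the lower complexes differed between libraries. DT library 2 was the highest DT library for 65 of the 85 members, and saline library 1 was the highest saline library for 59. Among all 15132 genes tested these numbers were 5297 and 5904.

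**Figure D1:**
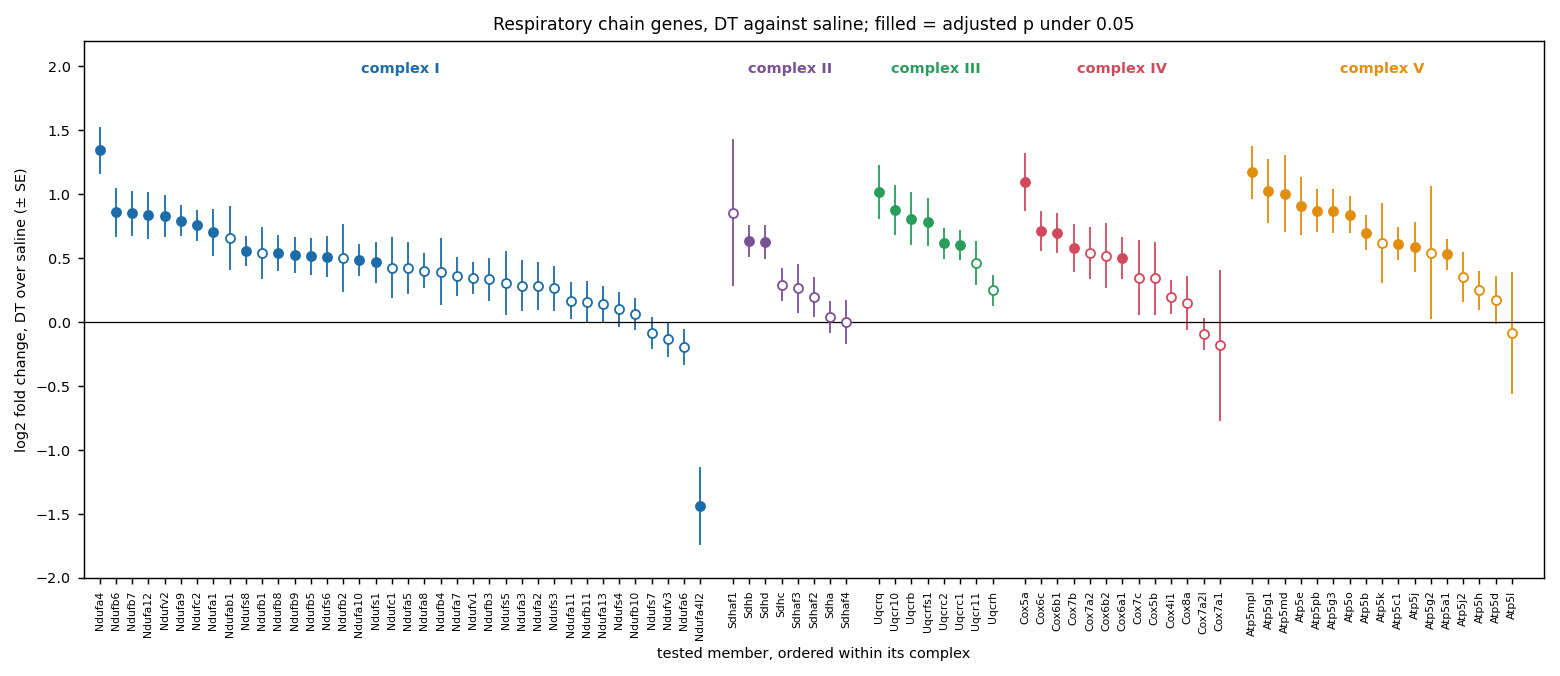
Log2 fold change of 84 of the 85 tested members, DT over saline, with its standard error, ordered by size within each complex; the 4 Sdhaf assembly factors stand with complex II, and filled points passed an adjusted p of 0.05 (edgeR). Values run between -1.44 for Ndufa4l2 and 1.34 for Ndufa4, and most lie above 0.

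**Figure D2:**
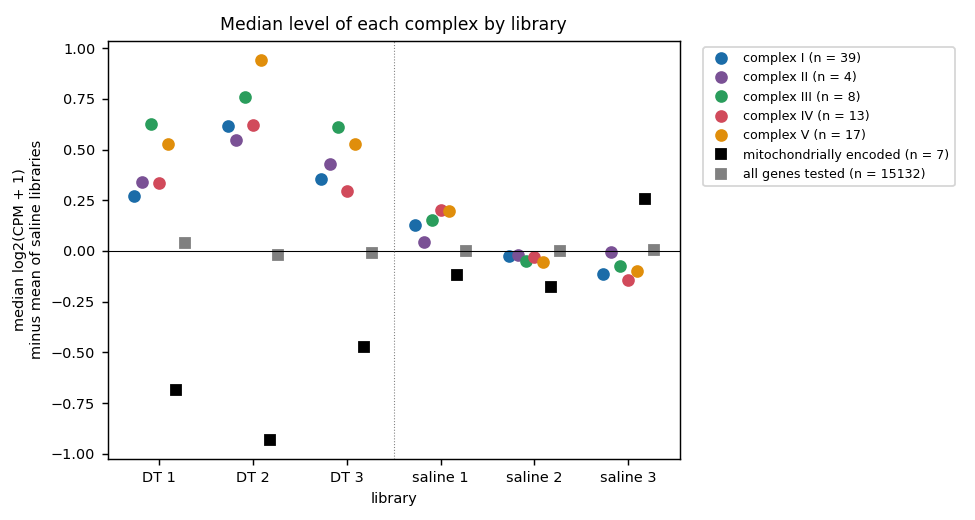
Median over the tested genes of each complex of log2(CPM + 1) minus the mean of the saline libraries, for each DT library and then each saline library, with the mitochondrially encoded subunits (black squares) and all genes tested (grey squares). The nuclear-encoded complexes lie above 0 in all 3 DT libraries, while the mitochondrially encoded median is at -0.68, -0.93 and -0.47 there.

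Which library was left out mattered for this count. Members higher in DT numbered 23 without DT library 2, 25 without DT library 3 and 25 without saline library 2, against 10.4%, 10.02% and 11.7% of all genes in the same fits. They numbered 30 without saline library 3, 40 without saline library 1 and 41 without DT library 1, against 14.2%, 15.1% and 17.9% of all genes. For complex I the count was 6 without DT library 2 and 8 without DT library 3 or saline library 2. For complex V it was 7 without DT library 2, and for complex II it was 1 without DT library 3. For complex IV it was 3 without DT library 2 or 3 or saline library 2 or 3. Across all 6 such fits 21 of the 39 stayed higher. Scaling by library size alone left 31 members higher (13.9% of all genes), all of them among the 39. This scaling moved the share of higher among all called genes to 47.5%, against 59.2% with the scaling used here.

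The submitters' sample identifiers fall into 2 number series, and the labels do not say what these mark. Within the larger one, which has 2 libraries in each group, 5 of the 85 members were higher (5.88%, against 7.22% of all genes): Ndufa4, Ndufa9, Atp5e, Atp5mpl and Atp5pb. Ndufa4l2 was again lower. The share of members higher was below the background. The median log2 fold change of the 85 in this fit was still 0.51. In the smaller series, with 1 library in each group and therefore no test, 79 of the 85 members were higher in the DT library, by a median of 0.51.

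The gene models of the members are short, and DT libraries differed from saline libraries along gene length. The median member was 24.3% as long as the median gene tested, and 84 of the 85 were shorter than it. Over all genes the median log2 fold change was 0.20 in the shortest of 20 length classes and -0.37 in the longest. With the trend of each library along length removed, 29 members were higher (16.3% of all genes) and 2 were lower. These 29 were all among the 39, and the members' median log2 fold change was 0.30, against 0.01 for all genes. By complex, the counts were then 5 of 8 for complex III, 9 of 17 for complex V, 2 of 4 for complex II, 10 of 39 for complex I and 3 of 13 for complex IV. They stand beside the 16.3% of all genes that were higher in this fit. The second member lower in this fit was the complex I accessory subunit Ndufa6, at -0.42 (adjusted p = 0.0327), which was at -0.19 (adjusted p = 0.333) without the correction.

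**Figure D3:**
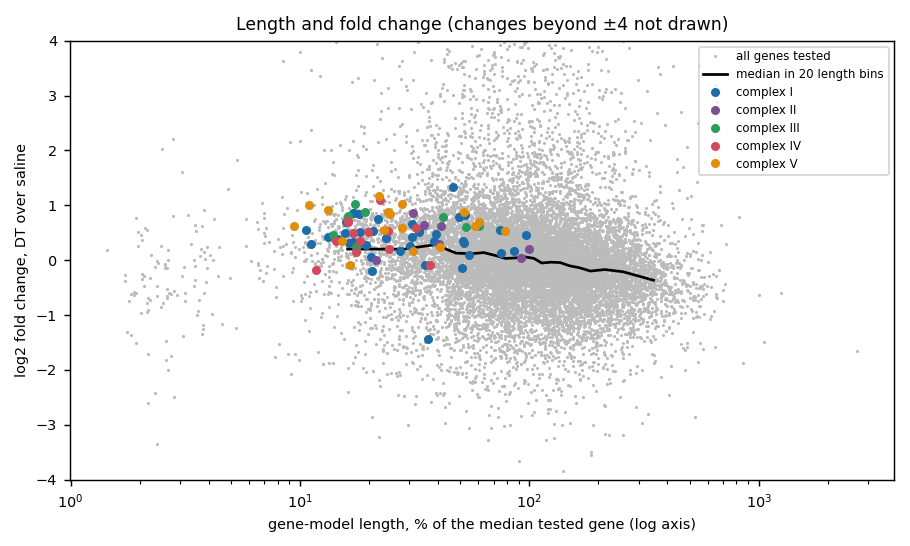
Log2 fold change, DT over saline, against gene-model length as a percent of the median tested gene (log axis); grey points are all genes tested, coloured points the members by complex, and the line joins the medians of 20 length classes. The line falls with length, between 0.20 at the short end and -0.37 at the long end, and most members lie above it.

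Complex I, the NADH dehydrogenase, has a catalytic core and a shell of accessory subunits around it. Of the 7 nuclear-encoded core subunits, 3 rose (42.9%, beside 17.2% of all genes). Ndufv2, an iron-sulfur subunit of the NADH-oxidising tip, was at 156, 246 and 201 CPM in DT libraries against 109, 112 and 118 CPM in saline libraries, so the groups did not overlap and DT library 2 was the highest. Its log2 fold change was 0.83 ± 0.17 (SE, n = 3 each; edgeR, adjusted p = 0.00534). Ndufs8, another iron-sulfur subunit, was at 142, 157 and 146 CPM in DT libraries against 99.96, 106 and 96.7 CPM in saline libraries. That is a log2 fold change of 0.56 (adjusted p = 0.00768), with little spread within either group. Ndufs1, the large iron-sulfur subunit, passed narrowly, with 0.47 (adjusted p = 0.0498), and lost the call without DT library 2 or 3 or saline library 1 or 2 (0.143 to 0.215). For Ndufs7, Ndufs3 and Ndufv1 values were between -0.08 and 0.34, with adjusted p between 0.0634 and 0.646.

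The other Nduf genes were counted as accessory subunits, Ndufa4 and Ndufa4l2 among them. Of 32 tested, 12 rose (37.5%, beside 17.2% of all genes) and 1, Ndufa4l2, fell (3.1%, beside 11.9%). Ndufa9, on the side of the matrix arm near the ubiquinone site, was at 331, 387 and 388 CPM in DT libraries against 211, 208 and 219.6 CPM in saline libraries. The groups were far apart compared with their spread, and the log2 fold change was 0.79 ± 0.12 (SE; adjusted p = 0.0015). Ndufc2 was at 147, 159 and 155 CPM in DT libraries against 96.1, 93.0 and 83.4 CPM in saline libraries, a log2 fold change of 0.76 (adjusted p = 0.00196). Ndufb7 was at 83.3, 94.9 and 85.5 CPM in DT libraries against 61.5, 45.8 and 38.8 CPM in saline libraries, a log2 fold change of 0.85 (adjusted p = 0.00645). In all 3 genes every DT library was above every saline library.

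The accessory subunits with the highest level per length did not all move. Ndufb10, with the highest median deposited RPKM of complex I (274), was at 192, 193 and 176 CPM in DT libraries against 195, 182 and 160.1 CPM in saline libraries, so the groups overlapped (log2 fold change 0.07, adjusted p = 0.727). Ndufa6, with a median RPKM of 248, was at 169, 169 and 147 CPM in DT libraries against 215, 173 and 166 CPM in saline libraries. Ndufb9, with a median RPKM of 230, was at 177, 240.3 and 197 CPM in DT libraries against 145, 144 and 137 CPM in saline libraries and passed (0.53, adjusted p = 0.0193). Its call was lost without DT library 2 or 3 or saline library 2 or 3 (0.0626 to 0.0900).

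The gene pair Ndufa4 and Ndufa4l2 gave both extremes of the whole set. Ndufa4 carries a complex I name, and its protein is now assigned to complex IV, while Ndufa4l2 is its paralog, known as a target of the hypoxia-inducible factor HIF1A. Ndufa4 (chr6:11900372-11907450, GRCm38) was at 116, 193 and 139.9 CPM in DT libraries against 63.7, 57.6 and 55.8 CPM in saline libraries. Every DT library was above every saline library, and the log2 fold change (1.34 ± 0.19 SE, n = 3 each; adjusted p = 0.000857) was the highest of the 85. Ndufa4l2 (chr10:127509274-127517154) was at 14.2, 7.65 and 9.86 CPM in DT libraries against 36.8, 31.5 and 17.9 CPM in saline libraries. It was the only member that fell, with log2 fold change -1.44 ± 0.30 (SE; adjusted p = 0.0069). Per length the pair stood at 73.7, 127 and 91.0 RPKM (Ndufa4) and 11.7, 6.54 and 8.32 RPKM (Ndufa4l2) in DT libraries. In saline libraries they stood at 41.2, 37.2 and 36.2 RPKM (Ndufa4) and 30.8, 26.3 and 15.1 RPKM (Ndufa4l2), so Ndufa4 was the more abundant in all 6 libraries. Both calls held in each fit that left out 1 library, with the trend along length removed and within the larger identifier series.

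**Figure D4:**
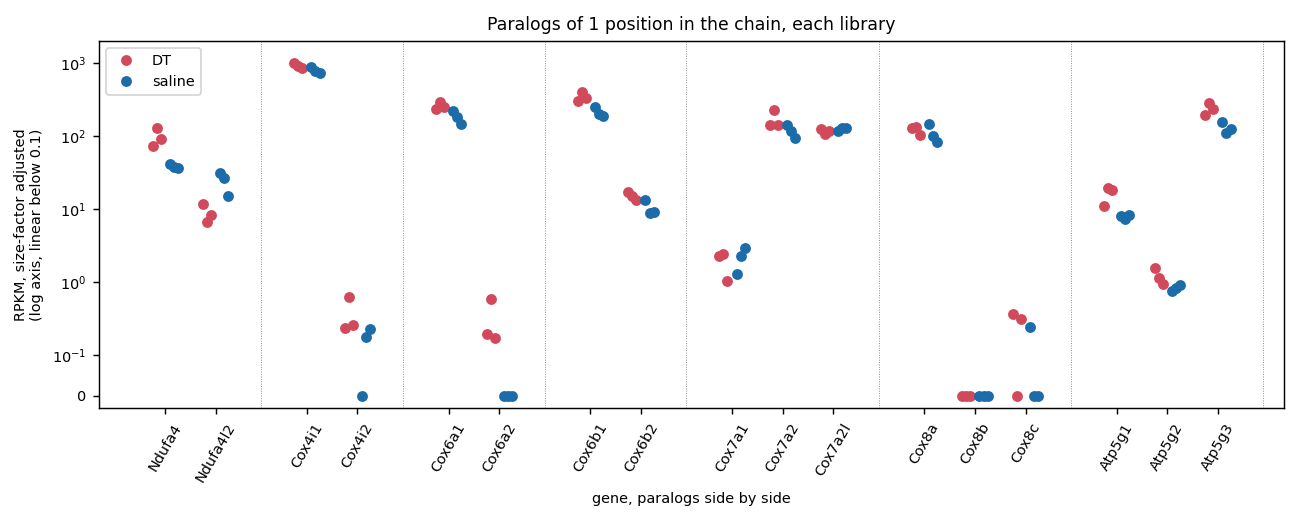
Deposited RPKM of each library (log axis, linear below 0.1) for paralogs that occupy 1 position in the chain, DT libraries in red to the left of saline libraries in blue. Ndufa4 lies higher and Ndufa4l2 lower in DT, and the tissue-restricted Cox4i2, Cox6a2, Cox8b and Cox8c lie near 0 in both groups.

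Complex II, succinate dehydrogenase, has 4 subunits, all nuclear-encoded. The iron-sulfur subunit Sdhb (chr4:140961271-140979198) was at 292, 349.7 and 319 CPM in DT libraries against 220.0, 202 and 197 CPM in saline libraries, and rose by 0.63 ± 0.13 log2 units (SE; adjusted p = 0.00511). The membrane anchor Sdhd was at 246, 318 and 312 CPM in DT libraries against 189, 183 and 196 CPM in saline libraries, and rose by 0.63 (adjusted p = 0.0077; 0.0553 without DT library 3). In neither did the groups overlap. The other anchor, Sdhc, was at 155, 159.9 and 147 CPM in DT libraries against 139, 125 and 112 CPM in saline libraries (0.29, adjusted p = 0.116). The flavoprotein Sdha, which holds the succinate site, was at 459, 455 and 518 CPM in DT libraries against 426, 458 and 508 CPM in saline libraries, with overlapping groups (0.04, adjusted p = 0.831). Of the assembly factors, Sdhaf2 was at 75.6, 90.9 and 89.7 CPM in DT libraries against 62.2, 74.4 and 86.9 CPM in saline libraries. Sdhaf1, Sdhaf3 and Sdhaf4 had log2 fold changes of 0.86, 0.26 and 0.00, with adjusted p of 0.292, 0.328 and 0.998.

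Complex III, the cytochrome bc1 complex, takes electrons from ubiquinol. Within the larger identifier series none of its 8 tested genes was called. Called higher there were 3 of 17 for complex V (17.6%) and 2 of 39 for complex I (5.13%), beside 7.22% of all genes. The median log2 fold change of complex III in that fit was 0.73. The core subunit Uqcrc1 (chr9:108936648-108949641) was at 1237, 1138 and 1154 CPM in DT libraries against 819.8, 765 and 743 CPM in saline libraries, with log2 fold change 0.60 ± 0.12 (SE; adjusted p = 0.00503). Its partner Uqcrc2 was at 459.6, 423 and 459 CPM in DT libraries against 273, 299 and 303 CPM in saline libraries, a log2 fold change of 0.61 (adjusted p = 0.00452). In both core subunits the spread within a group was small and the groups did not overlap. The Rieske iron-sulfur protein Uqcrfs1 was at 138, 121 and 100.4 CPM in DT libraries against 88.4, 57.9 and 62.4 CPM in saline libraries, a log2 fold change of 0.78 (adjusted p = 0.0122; 0.0555 without saline library 2).

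Among its small subunits, Uqcrq (chr11:53427922-53430831) was at 97.9, 169 and 127 CPM in DT libraries against 76.8, 64.6 and 52.7 CPM in saline libraries. At 1.02 ± 0.21 log2 units (SE; adjusted p = 0.00633) it had the highest value of the complex. Uqcr10 was at 101, 152 and 106 CPM in DT libraries against 79.6, 60.3 and 55.7 CPM in saline libraries, a log2 fold change of 0.88 (adjusted p = 0.00882). Uqcrb was at 30.2, 51.9 and 40.2 CPM in DT libraries against 22.8, 21.9 and 24.9 CPM in saline libraries (0.81, adjusted p = 0.0156). It lost the call without DT library 2 or 3 or saline library 2 (0.0598 to 0.0824), and 43.4% of its 50-base stretches are shared with transcripts of other genes, so uniquely aligned reads undercount it. Uqcr11 (0.47, adjusted p = 0.0666) and Uqcrh, the hinge protein (0.25, adjusted p = 0.156), did not pass, and Uqcr11 passed without DT library 1 (0.0165).

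In complex IV, cytochrome c oxidase, the nuclear-encoded subunits surround a catalytic core encoded by mitochondrial DNA, and several come as ubiquitous and tissue-restricted isoforms. Cox5a (chr9:57517328-57532427), one of the subunits shared by all tissues, was at 90.5, 148 and 99.2 CPM in DT libraries against 68.1, 43.3 and 46.6 CPM in saline libraries. Its log2 fold change was 1.09 ± 0.23 (SE; adjusted p = 0.00633), and 41.7% of its exon bases overlap another annotated gene, whose reads cannot be told apart where strand was not used. Cox6c was at 127, 181 and 134 CPM in DT libraries against 94.3, 87.8 and 87.2 CPM in saline libraries (0.72, adjusted p = 0.00793). Cox6b1 was at 165, 212 and 177 CPM in DT libraries against 134, 108 and 99.4 CPM in saline libraries (0.70, adjusted p = 0.00917). In all 3 the DT libraries lay above the saline libraries.

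The other 2 calls of complex IV were lost in most fits that left out 1 library. Cox7b was at 36.4, 54.3 and 39.1 CPM in DT libraries against 31.2, 29.7 and 25.7 CPM in saline libraries (0.58, adjusted p = 0.0415). Cox6a1 was at 135, 164 and 138 CPM in DT libraries against 125, 102 and 82.7 CPM in saline libraries (0.50, adjusted p = 0.0463). Cox7b lost its call when any library other than DT library 1 was left out (0.0585 to 0.200), and Cox6a1 lost its call without DT library 2 or 3 or saline library 2 or 3 (0.118 to 0.186).

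Cox4i1, the regulatory subunit, had the highest median RPKM of all members (852). It was at 810.3, 717 and 670.3 CPM in DT libraries against 702, 630.4 and 585 CPM in saline libraries, which overlapped (0.20, adjusted p = 0.289). Cox8a was at 75.6, 75.8 and 59.6 CPM in DT libraries against 85.0, 57.5 and 47.2 CPM in saline libraries (0.15, adjusted p = 0.62). Cox7a2 had a log2 fold change of 0.54 (adjusted p = 0.0729; 0.0473 without saline library 1), and Cox5b one of 0.34 (adjusted p = 0.393). Cox7a2l, which acts in the assembly of supercomplexes, was at 156, 127 and 139.9 CPM in DT libraries against 141, 155 and 155 CPM in saline libraries (-0.09, adjusted p = 0.62).

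Of the 7 tissue-restricted isoforms of complex IV, 2 were tested and neither passed. The testis-type Cox6b2 was at 11.5, 9.67 and 8.58 CPM in DT libraries against 8.83, 5.87 and 6.03 CPM in saline libraries (0.52, adjusted p = 0.152). The muscle-type Cox7a1 was at 0.891, 0.940 and 0.399 CPM in DT libraries against 0.497, 0.879 and 1.13 CPM in saline libraries (-0.18, adjusted p = 0.838). The lung-type Cox4i2 had 4, 7 and 5 reads in DT libraries and 0, 3 and 4 reads in saline libraries. The muscle-type Cox6a2 had 3, 6 and 3 reads in DT libraries and 0 reads in each saline library, a count that allows up to 3 reads. Cox8c had at most 4 reads in any library, and Cox7b2 and Cox8b had 0 in all 6. The complex I copies Ndufb4b and Ndufb4c were also too low to be tested.

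Complex V, the ATP synthase, has a catalytic F1 head in the matrix, a peripheral stalk, a rotating c ring and a membrane part. Of the 5 genes of the F1 head, 4 rose (80.0%, beside 17.2% of all genes). Atp5a1, the alpha subunit, was at 1649, 1596 and 1466 CPM in DT libraries against 1054, 1157 and 1048 CPM in saline libraries (0.53, adjusted p = 0.0099). Atp5b, the catalytic beta subunit, was at 1066, 1199 and 1037 CPM in DT libraries against 774, 638 and 623 CPM in saline libraries (0.70, adjusted p = 0.00475). Atp5c1, the gamma subunit of the central shaft, was at 598, 666 and 629.9 CPM in DT libraries against 380.0, 395 and 462 CPM in saline libraries (0.61, adjusted p = 0.0065). For each of these abundant subunits all DT libraries lay above all saline libraries. Atp5e, the epsilon subunit, had a log2 fold change of 0.91 (adjusted p = 0.015; 0.0697 without DT library 2), and Atp5d, the delta subunit, one of 0.18 (adjusted p = 0.515).

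Of the 4 genes of the peripheral stalk, 3 rose (75.0%, beside 17.2% of all genes). Atp5o (chr16:91925223-91931630), which joins the stalk to the top of F1, was at 308, 429 and 363 CPM in DT libraries against 216, 208 and 191 CPM in saline libraries. Its log2 fold change was 0.84 ± 0.15 (SE; adjusted p = 0.00271), with 52.5% of its exon bases overlapping another annotated gene. Atp5pb was at 259, 391 and 339.6 CPM in DT libraries against 162, 172 and 207 CPM in saline libraries (0.87, adjusted p = 0.00492). DT library 1 was the lowest DT library in both. Atp5j had a log2 fold change of 0.59 (adjusted p = 0.0493), with overlapping groups and no call without DT library 2 or 3 or saline library 2 or 3 (0.114 to 0.231). Atp5h had one of 0.25 (adjusted p = 0.256).

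The c ring is built from 1 mature protein that 3 genes encode with different import sequences. Atp5g3, the most abundant per length, stood at 195, 280.1 and 236 RPKM in DT libraries and 153, 109 and 125 RPKM in saline libraries. Atp5g1 stood at 10.9, 19.1 and 18.3 RPKM in DT libraries and 7.98, 7.25 and 8.34 RPKM in saline libraries. Their log2 fold changes from the counts were 0.87 (adjusted p = 0.00474) for Atp5g3 and 1.02 (adjusted p = 0.0132) for Atp5g1, which lost its call without DT library 2 or 3 or saline library 2 (0.0528 to 0.0732). Atp5g2 stood at 1.55, 1.15 and 0.94 RPKM in DT libraries and 0.75, 0.84 and 0.90 RPKM in saline libraries and did not pass (0.54, adjusted p = 0.462), with 38.3% of its 50-base stretches shared with other genes.

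In the membrane part, Atp5mpl (chr12:111961374-111967009), a small proteolipid, was at 54.4, 91.2 and 61.2 CPM in DT libraries against 34.9, 29.5 and 27.2 CPM in saline libraries. At 1.17 ± 0.21 log2 units (SE; adjusted p = 0.00297) it had the highest value of complex V, and every DT library was above every saline library. Atp5md, needed for dimers of the enzyme, was at 6.71, 11.7 and 8.10 CPM in DT libraries against 5.51, 4.21 and 3.43 CPM in saline libraries. Its log2 fold change was 1.004 (adjusted p = 0.0313), and without DT library 2 or 3 or saline library 2 or 3 it was not called (0.0823 to 0.156). The dimer subunits Atp5k and Atp5l had values of 0.62 (adjusted p = 0.165; 0.0243 without saline library 1) and -0.08 (adjusted p = 0.91). Atp5l shares 84.8% of its 50-base stretches with other genes and had under 2 CPM in every library.

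Genes for respiratory chain subunits are known to be driven by nuclear respiratory factor 1 (NRF1), by the ETS-family factor GABP and by YY1. RefSeq promoter windows on GRCm38.p6, from 250 bases before to 50 after the gene's start, were found for 75 of the 92 members and for 27025 genes in all. They were searched on both strands for an NRF1 motif, the ETS motif CCGGAAG and a YY1 motif, whose letters are those in capitals in the Uqcrc1 window (NRF1) and the Ndufa9 window (YY1). These motifs do not overlap in the windows printed here. The 4 windows shown belong to subunits that rose in DT, in 4 different complexes, and hold the motifs in capitals.
Uqcrc1: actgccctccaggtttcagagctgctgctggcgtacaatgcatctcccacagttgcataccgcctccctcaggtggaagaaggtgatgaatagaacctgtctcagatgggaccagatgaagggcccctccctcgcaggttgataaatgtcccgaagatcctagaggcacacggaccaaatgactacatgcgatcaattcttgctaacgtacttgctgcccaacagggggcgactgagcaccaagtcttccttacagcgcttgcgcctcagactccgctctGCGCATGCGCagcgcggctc
Cox6a1: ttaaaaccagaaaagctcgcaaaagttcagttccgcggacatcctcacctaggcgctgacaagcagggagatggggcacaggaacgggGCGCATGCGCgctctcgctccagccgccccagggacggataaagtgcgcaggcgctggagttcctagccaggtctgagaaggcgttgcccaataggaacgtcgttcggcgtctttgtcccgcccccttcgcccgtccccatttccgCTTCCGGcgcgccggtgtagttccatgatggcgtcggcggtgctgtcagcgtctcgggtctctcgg
Ndufa9: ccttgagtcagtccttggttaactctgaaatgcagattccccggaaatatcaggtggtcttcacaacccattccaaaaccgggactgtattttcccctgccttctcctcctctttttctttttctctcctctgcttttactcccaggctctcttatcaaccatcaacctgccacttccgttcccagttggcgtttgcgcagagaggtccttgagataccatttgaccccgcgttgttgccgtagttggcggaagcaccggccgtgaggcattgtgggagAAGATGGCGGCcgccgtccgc
Sdhb: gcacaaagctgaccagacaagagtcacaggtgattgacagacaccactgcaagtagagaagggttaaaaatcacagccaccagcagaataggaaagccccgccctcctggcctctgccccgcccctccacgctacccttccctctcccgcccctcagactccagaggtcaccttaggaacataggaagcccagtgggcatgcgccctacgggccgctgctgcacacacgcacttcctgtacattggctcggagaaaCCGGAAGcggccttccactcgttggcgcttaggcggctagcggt

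The Uqcrc1 window (chr9:108936398-108936697, plus strand) holds the NRF1 motif after the gene's start. The Cox6a1 window (chr5:115348909-115349208, minus strand) holds the NRF1 motif and, nearer the start, the ETS motif on the opposite strand. The Ndufa9 window (chr6:126849095-126849394, minus strand) holds the YY1 motif after the start, and the Sdhb window (chr4:140961021-140961320, plus strand) the ETS motif just after the start.

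The NRF1 motif was in 5 of the 75 member windows (6.67%), against 1.07% of all genes. The ETS motif was in 20 (26.7%), against 9.93%, and the YY1 motif in 4 (5.33%), against 0.755%. At least 1 of the 3 was in 27 (36.0%), against 11.3% of all genes. The member windows were also richer in G and C, with a median of 58.0% against 52.7% for all windows. Among the members, 13 of 31 that rose and 14 of 41 that were tested and did not rise held at least 1 motif. A match is a match of letters in this window, and binding was not measured.

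Of the 13 subunits encoded by mitochondrial DNA, 7 could be tested. Of these, 5 were lower in DT (71.4%, against 11.9% of all genes) and none was higher, with a median log2 fold change of -0.63. ND4, a proton-pumping subunit of complex I, was at 272, 248 and 291 CPM in DT libraries against 562, 459.7 and 616 CPM in saline libraries, with log2 fold change -1.01 ± 0.14 (SE; adjusted p = 0.000957). ND6 was at 111, 89.6 and 91.4 CPM in DT libraries against 188, 152 and 177 CPM in saline libraries (-0.82, adjusted p = 0.00262). ND2 was at 184, 206 and 254 CPM in DT libraries against 428, 334 and 494 CPM in saline libraries (-0.96, adjusted p = 0.00348). In these 3 every DT library was below every saline library. Of the 50-base stretches of ND4, 62.2% are shared with a pseudogene, so its uniquely aligned reads come from the rest.

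ND5 (-0.63, adjusted p = 0.0144; 0.0542 without saline library 3) and CYTB (-0.63, adjusted p = 0.0286) were lower as well. CYTB, the only complex III subunit of the mitochondrial genome, was at 2286, 2322 and 2949.9 CPM in DT libraries against 3327, 3391 and 4938 CPM in saline libraries. It lost its call without DT library 1 or 2 or saline library 3 (0.0616 to 0.0958). COX1 (-0.62, adjusted p = 0.063) and ND1 (-0.36, adjusted p = 0.195) did not pass, and the groups overlapped in both. COX1 passed without DT library 3 or saline library 1 (0.0309 to 0.0459). These 7 genes took 0.468%, 0.494% and 0.621% of reads in DT libraries and 0.775%, 0.733% and 1.07% in saline libraries. The count of lower genes was 3 without saline library 3. The other 6 subunits had at most 11 reads in any library and were not tested. COX2, COX3, ATP6, ND3 and ND4L share nearly all of their 50-base stretches with pseudogenes (ND3, the least, 97.99%), while ATP8 shares none. COX1 shares 51.1%.

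**Figure D5:**
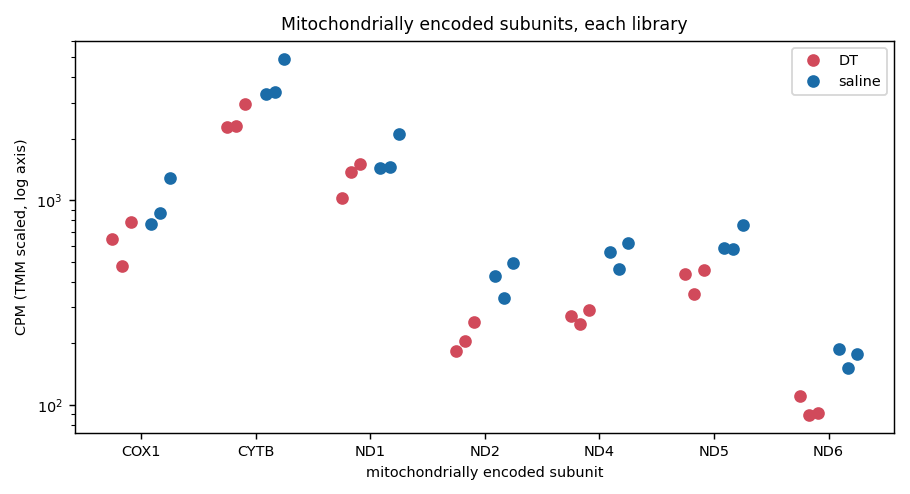
CPM of each library (log axis) for the 7 mitochondrially encoded subunits that were tested, DT libraries in red to the left of saline libraries in blue. For CYTB, ND2, ND4, ND5 and ND6 all DT libraries lie below all saline libraries, and for COX1 and ND1 they overlap.

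Proteins outside the finished complexes insert their cofactors and join their modules. For complex I, 1 of 15 tested assembly factors rose (6.67%, below the 17.2% of all genes), Ndufaf4, at 25.9, 51.9 and 34.2 CPM in DT libraries against 22.2, 22.0 and 23.7 CPM in saline libraries (0.72, adjusted p = 0.0447; 0.0852 to 0.220 when any library other than DT library 1 was left out). None of 6 passed for complex III. For complex IV, 4 of 21 rose (19.0%, near the 17.2% of all genes) and 1 fell (4.76%, against 11.9%). Cox10, which makes the heme of the oxidase, was at 34.5, 53.7 and 48.6 CPM in DT libraries against 20.1, 24.9 and 24.1 CPM in saline libraries (0.98, adjusted p = 0.00522). The other calls were Cmc2 (0.72, adjusted p = 0.0164), the copper chaperone Sco2 (0.60, adjusted p = 0.0209), Pet100 (0.69, adjusted p = 0.0285) and the lower Surf1 (-0.41, adjusted p = 0.035). Each of these 4 was lost in 3 or more of the fits that left out 1 library (0.0555 to 0.118), among them those without DT library 2, DT library 3 or saline library 3.

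For complex V, 1 of 3 tested assembly factors rose (33.3%, beside 17.2% of all genes), and the other 2 did not pass. The gene that rose was Tmem70, needed to build the c ring. Tmem70 was at 45.9, 117 and 80.6 CPM in DT libraries against 21.0, 18.3 and 18.2 CPM in saline libraries. Its log2 fold change of 2.08 ± 0.29 (SE; adjusted p = 0.000867) exceeded that of every subunit tested. Cyc1, the cytochrome c1 subunit of complex III, lacks the Uqcr prefix and was not among the 8 genes counted for that complex. Cyc1 was at 133, 161 and 146 CPM in DT libraries against 118, 98.2 and 93.0 CPM in saline libraries (0.51, adjusted p = 0.0235). It lost its call without DT library 2 or 3 or saline library 2 or 3 (0.0835 to 0.106). Cytochrome c, the electron carrier between complexes III and IV, could be read in part. Its somatic gene Cycs was at 1.501, 4.16 and 2.47 CPM in DT libraries against 1.41, 1.34 and 3.43 CPM in saline libraries (0.38, adjusted p = 0.607).

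The pathways that feed electrons to the chain were measured beside it. Of 13 tricarboxylic acid cycle enzymes, 9 rose (69.2%, against 17.2% of all genes) and none fell, with a median log2 fold change of 0.48. Idh3a was at 436, 544 and 484 CPM in DT libraries against 233, 241 and 253 CPM in saline libraries (1.01, adjusted p = 0.000539). Cs, the citrate synthase, rose by 0.74 (adjusted p = 0.00219) and Mdh2, the mitochondrial malate dehydrogenase, by 0.70 (adjusted p = 0.00257). The count of enzymes higher was 4 without DT library 2 or 3 and 5 without saline library 1 or 2. Of 10 genes of pyruvate dehydrogenase and its regulators, Pdk3, Pdhx and Pdhb rose (3 of 10, against 17.2% of all genes). Pdk2 fell (1 of 10, against 11.9% of all genes). The kinase gene Pdk3 was at 64.6, 60.6 and 57.2 CPM in DT libraries against 26.0, 27.1 and 29.1 CPM in saline libraries (1.15, adjusted p = 0.000436). The kinase gene Pdk2 was at 113, 61.6 and 79.0 CPM in DT libraries against 167, 169 and 161 CPM in saline libraries (-0.97, adjusted p = 0.00591). The list held 2 calls without DT library 3 or saline library 2. Pdhx had an adjusted p of 0.0102, and 0.0501 to 0.0549 without DT library 2 or 3 or saline library 2. Pdhb passed narrowly (adjusted p = 0.0464) and lost its call without DT library 2 or 3 or saline library 1 or 2 (0.112 to 0.191).

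Of 12 regulators of mitochondrial transcription and biogenesis, 3 rose, beside 17.2% of all genes, and none fell, beside 11.9% of all genes. The coactivator gene Pprc1 was at 27.5, 26.2 and 23.4 CPM in DT libraries against 13.2, 12.5 and 13.0 CPM in saline libraries (0.99, adjusted p = 0.00247). Gabpb1, a subunit of GABP, was at 41.0, 58.5 and 41.7 CPM in DT libraries against 27.2, 29.4 and 25.7 CPM in saline libraries (0.78, adjusted p = 0.0102; 0.0504 without DT library 2). Nrf1 was at 104, 112 and 96.4 CPM in DT libraries against 81.5, 80.3 and 78.6 CPM in saline libraries (0.38, adjusted p = 0.0435), and lost its call whichever library was left out (0.0555 to 0.156). Only 1 gene of the list was called without DT library 2. The coactivator gene Ppargc1a had a log2 fold change of -0.62 (adjusted p = 0.255), and Tfam, which binds mitochondrial DNA, one of 0.23 (adjusted p = 0.362).

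Of 78 mitochondrial ribosomal protein genes, which serve the translation of the mitochondrially encoded subunits, 38 rose (48.7%, against 17.2% of all genes) and none fell, with a median log2 fold change of 0.43. Mrpl20 was at 90.2, 138 and 108 CPM in DT libraries against 45.6, 45.8 and 42.0 CPM in saline libraries (1.33, adjusted p = 0.000515). Mrpl45 rose by 1.13 (adjusted p = 0.000758) and Mrps9 by 0.67 (adjusted p = 0.00333). The count was 12 without DT library 2, 13 without DT library 3, 20 without saline library 2, 23 without saline library 3, 24 with the trend along gene length removed (16.3% of all genes) and 3 within the larger identifier series. The last is 3.85% of the list, below the 7.22% of all genes.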

How the data were processed

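RNA was purified with a column kit with DNase treatment and checked on a Bioanalyzer (per the labels' protocols). The aligner was GSNAP and the build GRCm38, per the submitters' processing notes; its version, the gene annotation and use of strand were not given in the sources used here. The authors deposited 1 table per library, with the count of uniquely aligned reads per gene model and a size-factor-adjusted RPKM value, per the file headers. Within a library, the deposited RPKM and the count differed only by gene length and 1 library factor. Since reads with several alignments were left out, genes with near-identical copies are undercounted.

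Identifiers were Entrez numbers, and RefSeq named 31049 of 36528. The members and the gene lists were chosen with earlier results of these data known. The test on counts was edgeR 4.0.16 under R 4.3.3 (TMM scaling, robust quasi-likelihood, no covariate). Genes were filtered by filterByExpr (counts of at least 10, total of at least 15), leaving 15132, with Benjamini-Hochberg adjustment over all of them and a threshold of 0.05. Log2 fold changes are DT over saline, and levels are TMM-scaled CPM computed from the deposited counts. Library numbers follow the order of the records and pair nothing. Alternatives were scaling by library size or DESeq2 size factors, no filter, a mean count of at least 10, DESeq2 1.42.0, limma-voom (limma 3.58.1), blocks by sample identifier, a loess trend along gene length (span 0.5) removed from each library, and each library left out in turn; the fit within the larger identifier series was added after seeing the data. Shared sequence was the share of a gene's stretches of 50 bases found in transcripts of other genes. It was over 20% for 18 of the 84 tested members with such a value, and 8 of these were among the 39 that rose. Named members were all of complexes II and III, the 6 with the smallest p and the 3 with the highest RPKM in each of complexes I, IV and V, and paralogs of 1 position; up to 3 genes with the smallest p were named of each list. Other named genes were chosen after their values were seen. 1 member is counted but not reported here by name. The upper limit for a count of 0 is 3 reads and covers counting error only.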

Additional observations from a re-analysis of the deposited data

How the results depend on the processing

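No member changed direction past the threshold in any alternative. No paired analysis was possible because the labels give no replicate numbers and libraries are numbered in the order of their records; blocks by identifier series or consecutive identifiers, which the design does not show to pair libraries, gave 42 and 46 members higher (16.2% and 17.9% of all genes). DESeq2 gave 41 (15.7%), limma-voom 38 (17.1%), DESeq2 size factors 37 (16.9%), no filter 40 (11.7%) and a mean count of at least 10 gave 35 (15.9%). Within the larger identifier series, which has fewer libraries, all genes gave 1097 higher and 473 lower. Members higher numbered 5 there, beside 7.22% of all genes: 2 in complex I, 0 in complexes II, III and IV and 3 in complex V. The lists then held 2 calls (mitochondrially encoded), 0 (cytochrome c, complex I and complex IV assembly), 3 (tricarboxylic acid cycle), 1 (pyruvate dehydrogenase), 4 (glycolysis), 1 (biogenesis), 3 (mitochondrial ribosome) and 0 (cytosolic ribosome). Removing the length trend gave 2 members lower, 3 higher in complex IV, medians of 0.30 (members), 0.21 (complex I), 0.29 (II), 0.53 (III) and 0.27 (IV), and 0 cytochrome c, 1 complex III assembly, 3 complex IV assembly, 24 mitochondrial ribosome and 5 cytosolic ribosome calls. Library size alone gave 3 in complex IV, and 0 cytochrome c, 0 complex I assembly, 1 complex III assembly, 5 tricarboxylic acid cycle, 25 mitochondrial ribosome and 5 cytosolic ribosome calls. A mean count of at least 10 gave 3 in complex IV and 0 complex I assembly calls, which numbered 2 with no filter, 0 with the series block and 3 with the pair block. The cause of these shifts was not tested.

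With each library left out in turn, all genes gave 1564 to 2826 higher and 996 to 2045 lower. Members higher numbered 23 to 41: 6 to 16 in complex I, 1 to 2 in complex II, 4 to 7 in complex III, 3 to 5 in complex IV and 7 to 12 in complex V. Medians ran over 0.36 to 0.55 for all members and 0.27 to 0.62 for complex IV. Calls in the lists numbered 3 to 6 (mitochondrially encoded), 0 to 1 (cytochrome c), 0 to 3 (complex I assembly), 0 to 1 (complex III assembly), 1 to 5 (complex IV assembly), 4 to 8 (tricarboxylic acid cycle), 2 to 4 (pyruvate dehydrogenase), 5 to 8 (glycolysis), 1 to 3 (biogenesis), 12 to 41 (mitochondrial ribosome) and 2 to 8 (cytosolic ribosome). With 3 libraries a group, small changes could be missed, and members under 1 CPM rest on few reads.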

Other observations

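Glycolysis, the route that makes ATP without the respiratory chain, was measured in the same libraries. Of 17 glycolytic genes, 5 were higher in DT (29.4%, against 17.2% of all genes) and 2 were lower (11.8%, against 11.9%), by edgeR adjusted over all 15132 genes. The median log2 fold change was 0.51 for the respiratory chain members and 0.12 for the glycolytic genes. With the trend along gene length removed, these medians were 0.30 and 0.09. Ldha, the lactate dehydrogenase subunit, was at 531, 638 and 608 CPM in DT libraries against 279, 306 and 301 CPM in saline libraries (1.004, adjusted p = 0.000493). Eno1, an enolase, was at 199.6, 219.8 and 211 CPM in DT libraries against 112, 125 and 106 CPM in saline libraries (0.88, adjusted p = 0.000955). Pkm, the pyruvate kinase gene, was at 722, 801 and 722 CPM in DT libraries against 393, 476 and 412 CPM in saline libraries (0.81, adjusted p = 0.00173). The lower genes were Aldoc (-0.85, adjusted p = 0.00657) and the hexokinase gene Hk2 (-0.96, adjusted p = 0.0109; 0.0501 without DT library 3).

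Cytosolic ribosomal protein genes gave 7 higher and 2 lower among 85 tested (8.24% and 2.35%, both below the 17.2% and 11.9% of all genes). Their median log2 fold change was 0.22, and 0.01 with the trend along gene length removed. The median gene of this list stood at 16.0 RPKM in uniquely aligned reads, against 107 RPKM for the members. How much of its sequence is shared with other genes was not measured. The counts of both directions together were 2 without DT library 2, saline library 2 or saline library 3, 3 without DT library 3 and 4 without saline library 1. Rplp0, of the ribosomal stalk, was at 329, 318 and 305 CPM in DT libraries against 217, 231 and 225 CPM in saline libraries (0.50, adjusted p = 0.01). Rps24 was at 50.4, 76.1 and 53.8 CPM in DT libraries against 86.5, 90.9 and 109 CPM in saline libraries (-0.67, adjusted p = 0.0196), and lost its call without DT library 3 or saline library 3 (0.0690 to 0.0869).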
